A study of Mus musculus with 12 samples.

Results

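The Hox cluster genes of the mouse were followed along the cochlea, from the apical turn through the middle turn to the basal turn. A gene was taken as a member when the array named it *Hox* followed by the cluster letter a, b, c or d and a number, and 39 of the 19505 named genes on the array met that rule, with 81 of the 165865 probes. The set was chosen by the measured level of *Hoxa2*, which stood high in the basal turn. The difference of *Hoxa2* between turns is therefore described here, and its place in the counts of called genes tests nothing. There were 12 one-color exon microarrays, 4 each of the apical, middle and basal turns, made from 4 male C57BL/6 mice that were 6 weeks old, all untreated. By the methods, the bony capsule was removed, and each turn held the organ of Corti, spiral ganglion neurons and the lateral wall with its stria vascularis and spiral ligament. Each sample gave 25 ng of total RNA to one array. The turns came from the same mice, but the labels do not say that equal sample numbers mark the same mouse.

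Hox genes encode homeodomain transcription factors. They lie in 4 clusters, and their order along the chromosome follows the order in which they are switched on along the head-to-tail axis of the embryo. Genes at corresponding places of the clusters form a paralog group, numbered from 1 to 13. *Hoxa2* acts in the hindbrain and in the neural crest of the second pharyngeal arch, where it sets the identity of the arch that gives rise to the stapes and part of the external ear. The inner ear itself forms from the otic placode next to the hindbrain, and several Hox genes of the first groups shape that part of the hindbrain.

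Each Hox gene had 2 probes of 60 bases, except *Hoxa10* with 3 and *Hoxa13* with 4. On mm9 the probes lay on chromosome 6 for the HoxA cluster (11 genes) and spanned chr11:96056301-96228510 for HoxB (10 genes), chr15:102752245-102867272 for HoxC (9 genes) and chr2:74507076-74603059 for HoxD (9 genes). Coding probes of 5 genes follow as the array design gives them. They are not in each case the probe with the clearest signal, and the *Hoxa2* and *Hoxa3* probes on the 3' side are not printed. The first pair are the *Hoxa2* probe in the coding part of the gene, at chr6:52114497-52114556 on the minus strand, and the probe of its paralog *Hoxb2* at chr11:96213209-96213268 on the plus strand. Capitals mark their longest identical run of 13 bases, and 36 of the 60 bases matched in the best alignment without gaps. The pair shows how far a probe of one gene resembles that of its paralog.
Hoxa2: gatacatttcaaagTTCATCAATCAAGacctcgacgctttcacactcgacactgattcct
Hoxb2: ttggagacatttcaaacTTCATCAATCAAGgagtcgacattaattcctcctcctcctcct
The next probe belongs to a neighbor of *Hoxa2*, *Hoxa3*, at chr6:52122129-52122188 on the minus strand, and was not well above background on any array. Capitals mark TGGATG, the codons for the tryptophan and methionine at the core of the short motif with which many Hox proteins bind their PBX partners. On the probe strand these letters occurred in 7 of the 81 Hox probes (8.64%) and in 3.53% of all probes.
Hoxa3: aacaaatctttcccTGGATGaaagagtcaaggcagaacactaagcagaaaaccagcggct
The last pair are coding probes of posterior genes that were well above background on every array, *Hoxa9* at chr6:52175595-52175654 and *Hoxa13* at chr6:52209863-52209922, both on the minus strand.
Hoxa9: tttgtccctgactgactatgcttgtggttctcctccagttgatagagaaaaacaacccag
Hoxa13: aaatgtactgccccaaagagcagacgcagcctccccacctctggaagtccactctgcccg

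Signals are the scanner's background-corrected intensities in arbitrary units, scaled so that every array has the same 75th percentile. A gene's value is the mean of the log2 signals of its probes, and "changed" means an adjusted p-value below 0.05 in limma's F test over the 3 turns together with a difference of at least 2-fold between the pair of turns. Signals of different probes cannot be set against each other, because each probe binds its target differently. On the 12 arrays, 77.4% to 81.4% of the spots were well above background by the scanner software's own flag, and none was saturated. The lowest signal that counted as well above background lay between 24.7 and 35.8. Markers of hair cells (6 of 6), supporting cells (5 of 5), stria vascularis (6 of 6), spiral ligament fibrocytes (5 of 5) and neurons (6 of 6) had a probe well above background. Markers of bone (6 of 6), middle ear mucosa (6 of 6), blood (5 of 5) and brain glia (5 of 6) did too. As 84.6% of all genes did, these counts do not show which tissues the turns held. The arrays of each turn shared a slide of their own, so that slide and turn cannot be told apart in any comparison.

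Most Hox genes did not reach the limit for detection in the adult cochlea. A gene was counted as detected when at least 1 of its probes was well above background across the 4 arrays of a turn. By this count 14 of the 39 Hox genes (35.9%) were detected, against 16503 of the 19505 genes on the array (84.6%). They were *Hoxa2*, *Hoxa4*, *Hoxa7*, *Hoxa9*, *Hoxa10*, *Hoxa11*, *Hoxa13*, *Hoxb1*, *Hoxb2*, *Hoxb4*, *Hoxb6*, *Hoxc12*, *Hoxd1* and *Hoxd8*. The HoxA cluster held 7 of them (of 11 genes), HoxB 4 (of 10), HoxC 1 (of 9) and HoxD 2 (of 9). In each turn 13 were detected, and the turns differed only in *Hoxa2*, which was detected in the basal turn alone, and *Hoxb4*, which was detected in the apical and middle turns and on 3 of the 4 basal arrays. Along the clusters, 6 of 12 genes of paralog groups 1 to 4, 3 of 11 of groups 5 to 8 and 5 of 16 of groups 9 to 13 were detected. These counts are a description and were not tested. When the software's weaker flag, a signal significantly above the local background, was used instead, 26 Hox genes were counted.

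At the level of probes, 48 of the 81 Hox probes were not well above background on any array, and their signals stayed between 4.92 and 28.5. A group of 14 probes from 12 genes was well above background on all 12 arrays, at 40.4 to 729. Of the genes with several probes, *Hoxa4*, *Hoxa7*, *Hoxa9* and *Hoxb6* had each of their probes above background in some turn. The other 10 detected genes had at least 1 probe that did not meet the limit in any turn. Just inside the limit, *Hoxb6* had a second probe that was well above background on 4 apical, 3 middle and 2 basal arrays (24.0 to 53.3). Just outside it, *Hoxc5* and *Hoxa6* each had a probe that was well above background on 7 of the 12 arrays, at 19.3 to 62.1 and 24.2 to 72.6, but never on all 4 arrays of a turn.

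**Figure D1:**
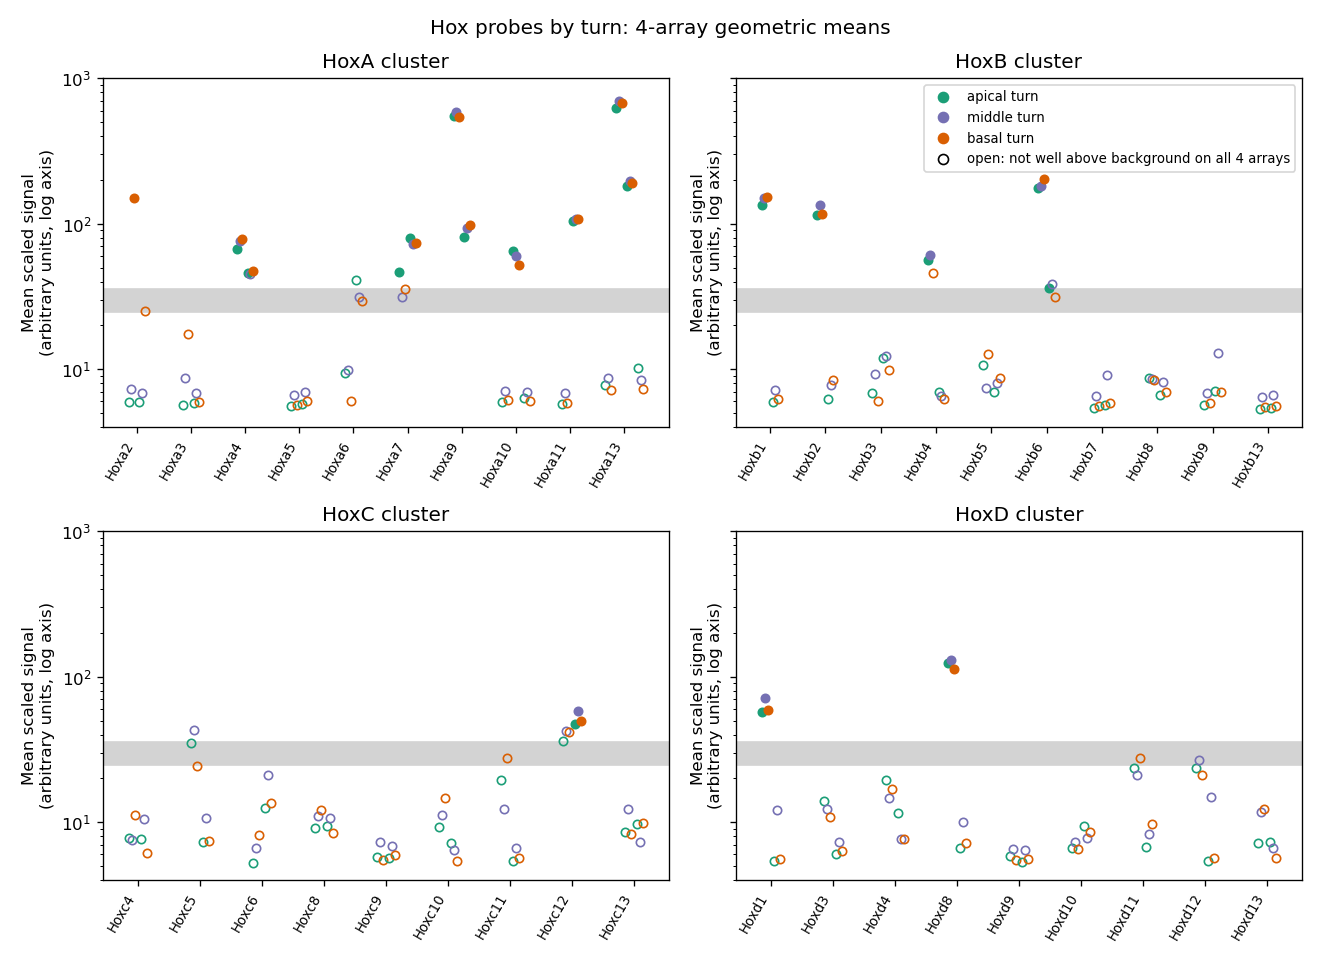
Mean scaled signal (arbitrary units, log axis) of Hox probes in the apical, middle and basal turns, by cluster, as geometric means of 4 arrays. Filled points were well above background across the 4 arrays of the turn, and the grey band runs from 24.7 to 35.8, the lowest signals that counted as well above background on the 12 arrays. The 3 turns lie close together for nearly all filled points, and the *Hoxa2* probe at 149 is filled in the basal turn alone.

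*Hoxa2* was above background in the basal turn and not in the others. Its probe on the 3' side of the gene (chr6:52112595-52112654) read 6.26, 6.37, 5.66 and 5.58 on the apical arrays, 7.82, 9.35, 5.23 and 7.45 on the middle arrays and 149, 142, 148 and 159 on the basal arrays. The 4 basal arrays were well above background and lay far above the 8 others, none of which was. Because the other turns were not well above background, only an approximate bound can be given. It put the lowest signal well above background on each array in place of any lower reading. By this bound the basal signal was 5.68-fold that of the apical turn and 4.65-fold that of the middle turn. The bound is not strict, because readings above that lowest signal were not always well above background. A *Hoxa4* probe read 38.6 to 63.8 on the middle arrays and was well above background on 2 of them. The ratios of the measured means, 25.1 and 20.5, rest on readings that were not well above background.

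The coding probe of *Hoxa2*, whose sequence is shown above, read 5.75, 5.21, 7.57 and 5.41 in the apex, 7.30, 7.02, 5.07 and 8.66 at the middle turn and 25.4, 27.6, 28.8 and 20.0 in the base. The basal readings lay above every other reading, but they were well above background on 2 of the 4 arrays only, and no fold is given for this probe. Both probes therefore pointed the same way, with a clear signal in one of them. The corresponding probe of *Hoxb2*, which shares the marked bases, read 112 to 120 in the apex, 125 to 151 at the middle turn and 102 to 151 in the base, and these ranges overlapped between the base and each other turn.

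Over both probes, the *Hoxa2* signal was 5.95 ± 0.45 in the apex, 7.21 ± 1.4 at the middle turn and 61.4 ± 3.7 in the base (mean ± SD, n = 4 each). The fitted difference in log2 signal was 3.37 between base and apex and 3.11 between base and middle turn, and -0.26 between apex and middle turn. The size depended on how low signals were treated. With 16 added to each signal the first 2 differences were 1.91 and 1.83, and with a model-based background correction (normexp, offset 50) they were 1.12 and 0.93, the latter below the 2-fold limit. The arrays measured whole pieces of tissue, so that more cells with *Hoxa2* RNA and more RNA per cell cannot be told apart.

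**Figure D2:**
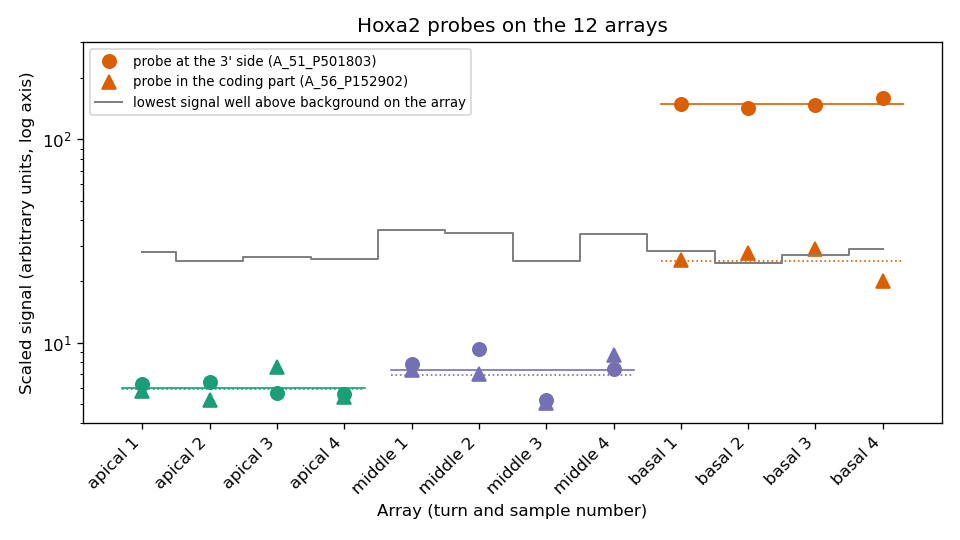
Scaled signal (arbitrary units, log axis) of the *Hoxa2* probes on each of the 12 arrays, with circles for the probe on the 3' side and triangles for the coding probe. Horizontal lines are geometric means of a turn (solid and dotted) and the grey steps show the lowest signal well above background on each array. The circles stand at 142 to 159 in the base and at 9.35 or lower elsewhere.

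*Hoxa3*, beside *Hoxa2* on chromosome 6, was looked at next. *Hoxa3*, which acts in the third pharyngeal arch, read 6.70, 5.22, 5.49 and 5.83 in the apex, 7.36, 10.9, 6.12 and 7.25 at the middle turn and 11.4, 7.62, 10.4 and 11.9 in the base. Each basal array lay above each apical one. In the limma contrast of base and apex the difference in log2 signal was 0.81 (SE 0.18, adjusted p = 0.0042). It came from the probe at chr6:52119087-52119146, which differed by 1.61, while the coding probe shown above differed by 0.02. The gene stayed under the 2-fold limit, except with spike-in scaling, where it passed. No probe of *Hoxa3* was well above background on any array, so this is a difference between readings near background and no fold is given.

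Beyond *Hoxa3* no HoxA gene passed the limma contrast between base and apex. *Hoxa4*, the next gene, read 60.7, 54.6, 47.1 and 60.9 in the apex, 54.1, 60.6, 54.2 and 66.6 at the middle turn and 65.6, 57.8, 63.4 and 57.0 in the base, and all 3 turns overlapped. At the *Hoxa2* end the measured gene next to the cluster was *Skap2*, a signaling adapter, at 353 ± 19 in the apex and 473 ± 52 in the base (log2 difference 0.42, SE 0.084, adjusted p = 0.0025, limma). At the other end the neighbor was *Evx1*, a homeobox gene, which was not detected (12.5 ± 2.3 in the apex and 11.1 ± 1.9 in the base).

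**Figure D3:**
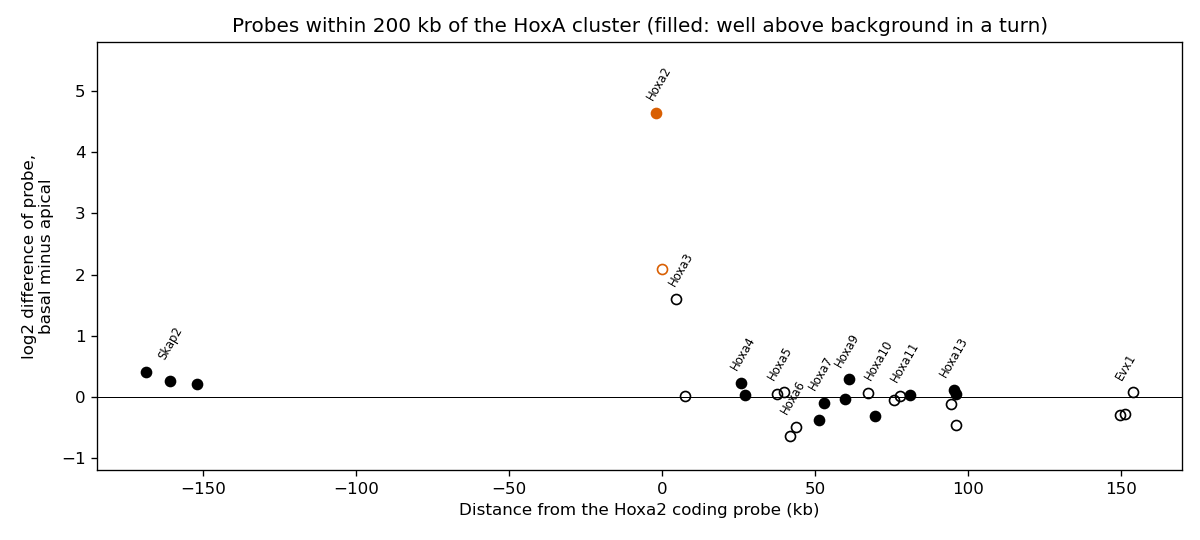
Difference in log2 signal between the basal and apical turns (means of 4 arrays) for probes within 200 kb of the HoxA cluster, against the distance in kb from the *Hoxa2* coding probe. Filled points were well above background across the 4 arrays of some turn. The *Hoxa2* points and the open points rest on readings that were not well above background on all 4 apical arrays, so that their heights give no fold, and the filled probes of other genes lie between -0.38 and 0.40.

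The comparison of the basal and apical turns called 1 of the 39 Hox genes changed, *Hoxa2*, where 4.39% of all genes were called changed and 1.12% were called higher in the base. Between base and middle turn the count was again 1, *Hoxa2* (2.66% of all genes, 0.456% higher in the base). Between apex and middle turn it was 0 (0.436% of all genes). Nothing is read from these counts, because *Hoxa2* prompted the choice of the genes, and the same holds for *Hoxa2* in the counts below. With the adjusted p of the single contrast and no limit on fold, 3 Hox genes differed between base and apex (*Hoxa2* and *Hoxa3* among them, all higher in the base), where 39.2% of all genes did and 21.6% were higher in the base. Between base and middle turn there were also 3 (20.9% of all genes). The base was higher in 2 of them (9.23% of all genes) and lower in 1 (11.6%). They were *Hoxa2*, *Hoxc11*, which was higher in the base by 0.46 (adjusted p = 0.046), and *Hoxc5*, which was lower by a log2 difference of -0.68 (adjusted p = 0.017, limma). Neither *Hoxc11* nor *Hoxc5* was detected. Between apex and middle turn the count was 0 in limma (12% of all genes), and 10 Hox genes had an unadjusted p below 0.05 (32% of all genes). The unmoderated F test with the fold limit also gave 0.

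The arrays of the basal and apical turns did not overlap for 3 Hox genes, *Hoxa2*, *Hoxa3* and *Hoxc11*, and this was so for 38.3% of all genes. Apex and middle turn did not overlap for *Hoxa7* and *Hoxb2* (20.8% of all genes), and base and middle turn for *Hoxa2* and *Hoxa6* (24.1% of all genes). The median log2 difference between base and apex was 0.04 over the 39 Hox genes and 0.04 over all genes. Between apex and middle turn it was -0.19 and -0.07. It was -0.22 for the Hox genes not detected and -0.14 for the detected ones without *Hoxa2*. The lowest signal well above background was 34.3 to 35.8 on middle arrays 1, 2 and 4, and 25.2 to 27.8 on the apical arrays. Readings near background thus lay on unlike scales in these turns, and the part of this in the difference was not tested.

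None of the 13 detected genes other than *Hoxa2* passed a limma contrast between turns. Their fitted log2 differences between base and apex ran from -0.24 to 0.22. The 95% intervals of the 13 together reached from -0.68 to 0.71, so each left out a 2-fold difference of the gene mean. A gene mean that includes a probe under the limit for detection can understate a change. For such genes a 2-fold change in the RNA is therefore not excluded. Between base and apex 1 of the 13 (*Hoxb2*) had an unadjusted p below 0.05, where 46.2% of all genes did. The intervals between apex and middle turn reached from -1.40 to 0.61, and between base and middle turn from -1.36 to 0.38. In these a 2-fold difference of the gene mean lay within the interval for *Hoxd1* alone, with the same limit. A test that finds no difference does not show that the levels were the same.

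**Figure D4:**
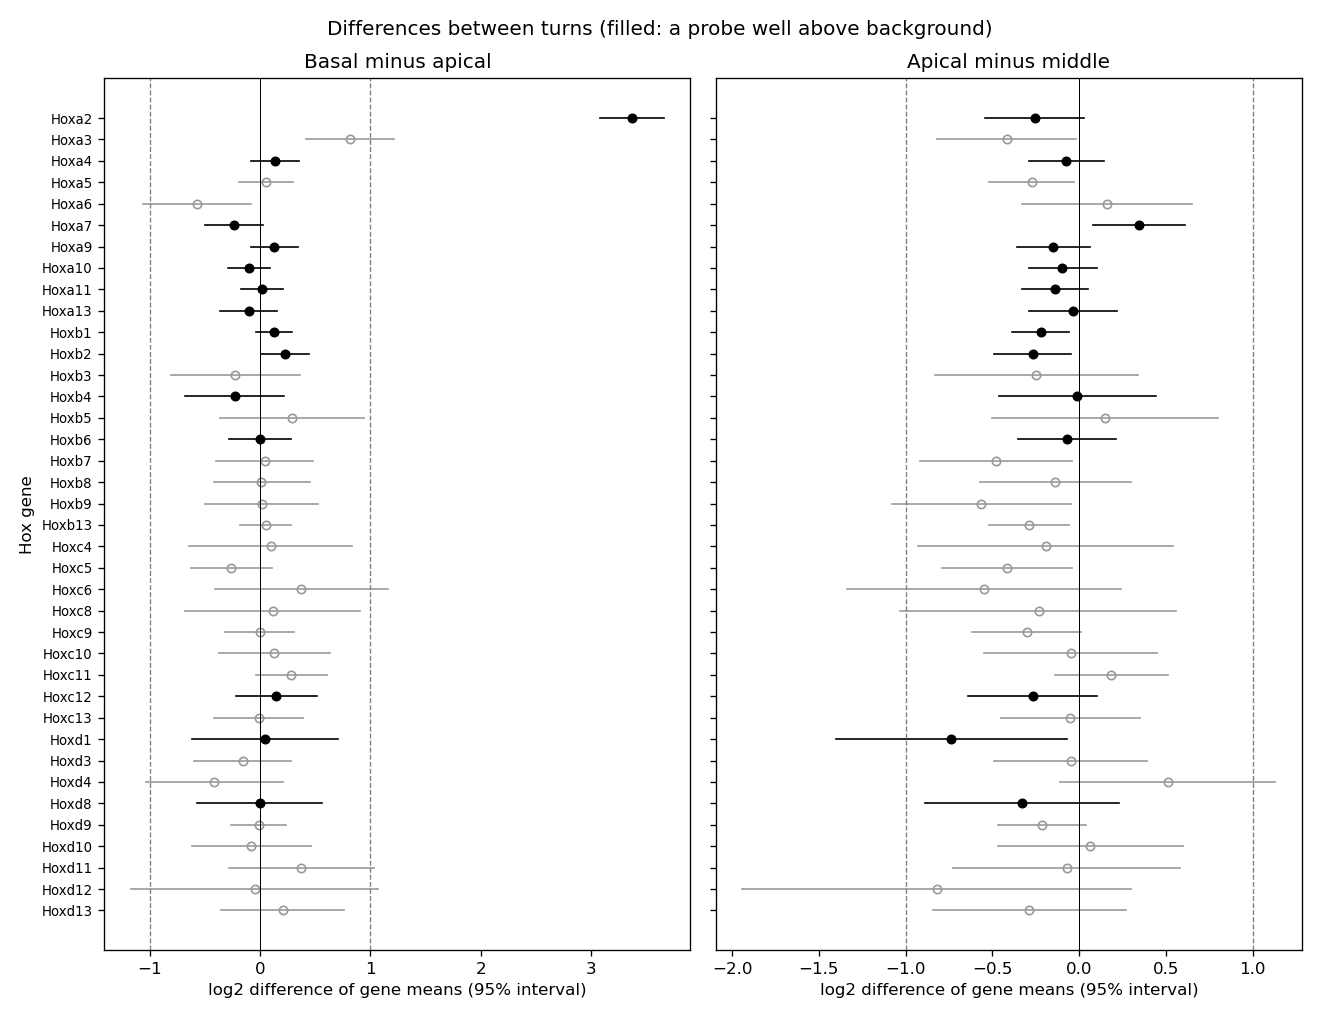
Difference in mean log2 signal with its 95% interval (limma, 12 arrays) for the Hox genes shown, base minus apex on the left and apex minus middle turn on the right. Filled points have a probe well above background in some turn, and dashed lines mark 2-fold. All genes shown but *Hoxa2* lie between -0.57 and 0.81 on the left.

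Among the anterior genes of this group, *Hoxb1* marks a segment of the embryonic hindbrain. It was at 28.3 ± 1.3 in the apex, 33.1 ± 3.1 at the middle turn and 30.8 ± 2.0 in the base (mean ± SD, n = 4 each, as for the values that follow). Its log2 difference between base and apex was 0.12 (SE 0.075, adjusted p = 0.23). *Hoxb2*, the paralog of *Hoxa2*, was at 26.9 ± 1.6, 32.4 ± 1.4 and 31.7 ± 4.9 in the same order, with a difference of 0.22 (SE 0.099, adjusted p = 0.099). *Hoxb2* was lower in the apex than in the middle turn on every array (25.9 to 29.3 against 31.2 to 33.8), by a log2 difference of -0.27 (adjusted p = 0.099, limma). Of the genes of paralog group 4, *Hoxa4* was at 55.8 ± 6.5, 58.9 ± 6.0 and 61.0 ± 4.2, and *Hoxb4* at 20.0 ± 3.6, 20.0 ± 1.9 and 17.5 ± 5.2. The lowest *Hoxb4* value was 10.8, on basal array 4, and the basal and apical arrays overlapped (adjusted p = 0.44).

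*Hoxd1* spread widely in the middle turn. It read 17.4, 18.1, 16.6 and 18.7 in the apex, 29.7, 17.4, 63.8 and 22.8 at the middle turn and 18.9, 18.9, 17.6 and 17.5 in the base. The middle arrays spread over the values of the others and beyond. The value on middle array 3 came from a probe that read 57.2 there and between 5.09 and 7.33 on the 11 other arrays. The log2 difference between apex and middle turn was -0.74 (SE 0.30, adjusted p = 0.12, limma), and -0.37 without middle array 3.

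Of the central genes, *Hoxa7* was at 61.2 ± 7.9 in the apex, 48.0 ± 3.8 at the middle turn and 52.1 ± 7.9 in the base. The apical arrays (53.6 to 71.0) lay above the middle ones (43.6 to 51.5), with a log2 difference of 0.34 (SE 0.12) that did not pass the test (adjusted p = 0.087, limma). *Hoxb6* was at 80.3 ± 7.2, 84.4 ± 6.9 and 81.0 ± 15 (base minus apex 0.00, adjusted p = 0.99). *Hoxd8* was at 29.7 ± 9.3, 36.7 ± 7.4 and 30.0 ± 11, and its detected probe alone read 105 to 142 over the 12 arrays. Genes of these groups pattern the trunk of the embryo.

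No detected posterior gene, a group that patterns the limbs and the hind part of the body, passed a limma contrast between turns. *Hoxa9*, which is also active in blood progenitors, was at 213 ± 21 in the apex, 235 ± 18 at the middle turn and 232 ± 24 in the base, with a log2 difference between base and apex of 0.13 (SE 0.095, adjusted p = 0.35). Both of its probes were well above background on all 12 arrays. The probe shown above read between 70.8 and 114, and the other between 425 and 667, and in each the 3 turns overlapped. *Hoxa10* was at 13.5 ± 1.6, 14.4 ± 1.3 and 12.5 ± 0.40, but only 1 of its 3 probes was detected. That probe read 60.8 to 68.7 in the apex, 56.4 to 68.5 at the middle turn and 50 to 54.2 in the base, so its basal readings lay below all others. The log2 difference between base and apex was -0.31 for that probe and -0.10 for the gene as a whole (adjusted p = 0.43, limma), and with spike-in scaling the gene differed by 0.32. *Hoxa11* was at 24.6 ± 0.79, 27.3 ± 3.6 and 25.0 ± 1.4 (adjusted p = 0.87), and its detected probe read 71.8 to 133.

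*Hoxa13*, the gene at the far end of the HoxA cluster, showed how much probes of one gene can disagree. The probe shown above read 590 to 657 in the apex, 677 to 729 at the middle turn and 615 to 710 in the base, and a second one 178 to 194, 187 to 210 and 179 to 198. The apical and middle readings of the first did not overlap. The other 2 probes were not well above background on any array, at 5.15 to 15.7. The second probe lies at chr6:52210544-52210603 and has a G and C content of 81.7%. Over the 4 probes *Hoxa13* was at 55.1 ± 6.7, 56.6 ± 8.3 and 51.1 ± 3.3 (base minus apex -0.10, adjusted p = 0.55, limma). *Hoxc12*, the one detected gene of the HoxC cluster, was at 41.4 ± 5.0, 49.9 ± 6.3 and 46.8 ± 12 (adjusted p = 0.56).

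The 25 Hox genes without detection included *Hoxa3*, *Hoxa5*, *Hoxa6*, *Hoxb3*, *Hoxb5*, *Hoxb7*, *Hoxb8*, *Hoxb9*, *Hoxb13*, *Hoxc4*, *Hoxc5*, *Hoxc6*, *Hoxc8*, *Hoxc9*, *Hoxc10*, *Hoxc11*, *Hoxc13*, *Hoxd3*, *Hoxd4*, *Hoxd9*, *Hoxd10*, *Hoxd11*, *Hoxd12* and *Hoxd13*. Their gene values ran from 5.03 to 74.2. The highest belonged to *Hoxd12* on middle array 2, where one probe read 182 against 5.14 at the lowest. All other values of the 25 genes were at most 28.0. Between base and apex their differences ran from -0.57 (*Hoxa6*) to 0.81 (*Hoxa3*) in log2 signal, and no fold is given for them.

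The genes that work with or upstream of Hox genes were taken from lists that had been drawn up for the purpose. The PBX, MEIS and PKNOX cofactors, homeodomain proteins that bind DNA together with Hox proteins, were all detected (9 of 9). None was changed by at least 2-fold between base and apex, and 6 of 9 were lower in the base by the limma contrast without a fold limit (17.6% of all genes were). The median of the list was -0.23 in log2 signal, beside 0.04 for all genes. *Meis1* fell by 0.75 from apex to base (SE 0.086, adjusted p = 7.4e-05), from 231 ± 21 to 138 ± 10, with 169 ± 15 in the middle turn. *Meis2* fell by 0.51 (adjusted p = 0.00098), from 110 ± 4.6 to 77.2 ± 5.8. The directions of *Pbx2*, *Pbx3* and *Pknox1* turned under spike-in scaling, which moved the median of all genes to 0.45, while *Meis1* and *Meis2* stayed lower (-0.33 and -0.10).

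Of 14 upstream regulators and retinoic acid genes, 2 were changed and lower in the base (3.27% of all genes were), and none was changed and higher (1.12%). *Egr2*, the activator of *Hoxa2* and *Hoxb2* in the hindbrain and also a factor of Schwann cell myelination, was at 339 ± 44 in the apex, 354 ± 60 at the middle turn and 156 ± 51 in the base (log2 difference -1.17, SE 0.20, adjusted p = 0.00099, limma). *Aldh1a3*, an enzyme that makes retinoic acid, was at 897 ± 140, 881 ± 300 and 368 ± 250 (-1.49, SE 0.38, adjusted p = 0.0087). By the contrast without a fold limit, 2 genes of the list were higher in the base and 4 lower, against 21.6% and 17.6% of all genes. *Aldh1a1*, a related enzyme, was higher in the base by 0.78 (adjusted p = 5.4e-05), and *Cyp26b1*, which degrades retinoic acid, by 0.73 (adjusted p = 0.0035). Those 4 directions held under each scaling tried. The other lower ones were the retinoic acid receptors *Rara* (-0.28, adjusted p = 0.0011) and *Rarb* (-0.18, adjusted p = 0.045, limma), and both directions turned under spike-in scaling (0.14 and 0.24). *Cdx2* and *Cdx4*, activators of posterior Hox genes in the embryo, were not detected. The Schwann cell markers moved in the same direction as *Egr2*. The 4 measured ones (*Pmp22*, *Mbp* and *Prx* among them) were lower in the base by the contrast. Under spike-in scaling the direction of *Mbp* turned (0.06), while *Pmp22* and *Prx* stayed lower (-0.17 and -0.30). The summed signal of the 4 markers was 9515 to 11365 in the apex, 10291 to 12721 at the middle turn and 4987 to 9419 in the base. Their part in the result was not tested.

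All 14 Polycomb genes, which keep Hox clusters silent, and all 8 Trithorax and related genes, which keep them active, were detected, and limma with the 2-fold limit called none of them between base and apex (5 of each list had an unadjusted p below 0.05, beside 46.2% of all genes). Their median differences were -0.07 and -0.03. Without the fold limit, 1 Polycomb gene was higher in the base, *Cbx8* (0.36), and 1 lower, *Ezh1* (-0.16). Of the Trithorax list 1 was higher, *Kdm6b* (0.18), and 3 were lower, *Mll1* (-0.47), *Rbbp5* (-0.21) and *Myst3* (-0.19). Over all genes 21.6% were higher and 17.6% lower. The directions of *Ezh1*, *Rbbp5* and *Myst3* turned under spike-in scaling. Of the *Evx* and *Mnx* homeobox genes none of 3 was called, and none had an unadjusted p below 0.05.

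Of 17 transcription factors of skeleton-forming mesenchyme, the tissue in which *Hoxa2* acts in the second arch, 1 was changed between base and apex. *Shox2* was at 320 ± 35 in the apex, 295 ± 82 at the middle turn and 134 ± 70 in the base (-1.37, SE 0.28, adjusted p = 0.0027). Without the fold limit 5 of 17 were higher and 6 lower in the base, against 21.6% and 17.6% of all genes. *Twist1* (0.61), *Dlx5* (0.43), *Sox9* (0.42) and *Prrx1* (0.39) were among the higher ones, and *Osr1* (-0.88) and *Six2* (-0.62), a gene that *Hoxa2* represses in the second arch, among the lower ones. These directions held under each scaling tried, while those of *Runx2* and *Prrx2*, also lower, turned under spike-in scaling. The list median was 0.17. Between apex and middle turn *Osr2* was higher in the apex by 1.13 (adjusted p = 0.018).

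**Figure D5:**
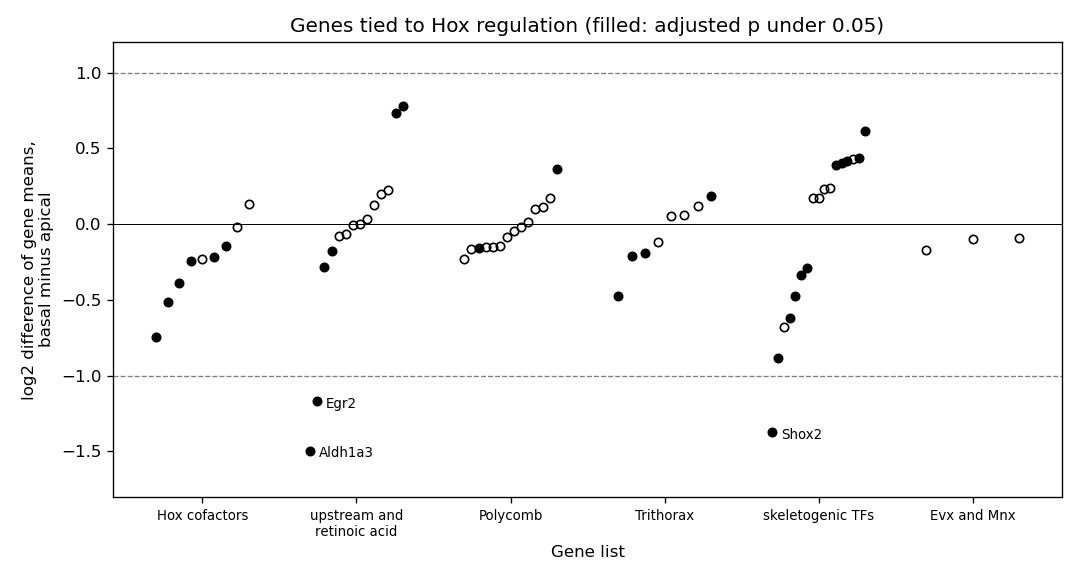
Difference in mean log2 signal between the basal and apical turns for the genes of 6 lists, each point one gene (means of 4 arrays per turn) and dashed lines at 2-fold. Filled points passed the contrast's adjusted p of 0.05 in limma. *Egr2*, *Aldh1a3* and *Shox2* lie beyond 2-fold, all lower in the base.

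Markers of several cell types were higher or lower in the base. Of 5 cartilage markers 4 were higher in the base by the contrast, where 21.6% of all genes were. *Acan*, the main proteoglycan of cartilage, was at 132 ± 38 in the apex, 204 ± 29 at the middle turn and 806 ± 93 in the base. The summed cartilage signal was 2163 to 2644 in the base, 942 to 1252 in the apex and 1118 to 1180 in the middle turn. Of 6 bone markers 1 was higher by the contrast, *Dmp1* (log2 difference 1.09). The summed bone signal overlapped between apex and base (1183 to 4968 in the apex and 2262 to 2966 in the base). The summed signal of 5 fibrocyte markers was 266498 to 289935 in the apex, 357342 to 405484 at the middle turn and 520570 to 584494 in the base. Most of that sum came from *Otos* (151000 in the apex, 368000 in the base) and *Coch* (93600 and 139000). By the contrast 4 of the 5 were higher in the base, and *Slc26a4* did not differ (0.09, adjusted p = 0.43, limma). Of 6 stria vascularis markers 5 were higher in the base by the contrast (21.6% of all genes were). Their summed signals, mostly from *Dct* and *Kcnj10*, were 40105 to 45969 in the apex, 50413 to 71445 at the middle turn and 59434 to 78638 in the base. For both sums the middle arrays also lay above the apical ones. Most hair cell and neuron markers went the other way, with 4 of 6 and 5 of 6 changed and lower in the base (3.27% of all genes were). The hair cell marker *Myo6* was not lower in the base (0.115 against the apex, adjusted p = 0.13, limma). Against the middle turn *Myo6* was higher in the base by 0.212 (adjusted p = 0.02, limma). The neuron marker *Rbfox3* did not pass between base and apex (-0.129, adjusted p = 0.67, limma). The part of these markers in the *Hoxa2* result was not tested.

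Within 200 kb of the 4 clusters the array measured 16 other genes, 15 of them detected. None was changed between base and apex by the 2-fold limit. By the limma contrast 4 were higher in the base, *Skap2* (0.42), *Snf8* (0.34), *Mtx2* (0.24) and *Atp5g1* (0.23), and 1 was lower, *Lnp* (-0.45, adjusted p = 0.0024), against 21.6% and 17.6% of all genes. *Mtx2* and *Lnp* lie on either side of the HoxD cluster, with *Evx2* (40.2 ± 14 in the apex, 36.1 ± 4.1 in the base) next to *Hoxd13*. Next to the HoxB cluster *Ttll6* was at 24.3 ± 2.9 and 20.0 ± 2.6, and *Skap1* at 37.9 ± 4.5 and 32.7 ± 2.8 in the same order. *Smug1*, the nearest measured gene beyond *Hoxc4*, was at 177 ± 20 and 187 ± 14.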

How the data were processed

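The authors hybridized Cy3-labeled cRNA to Agilent SurePrint G3 Mouse Exon arrays and made the deposited intensity values with Agilent Feature Extraction 10.7.3.1, which subtracts background. The deposited series table of values held the same intensities. Probe positions are those of the array design (mm9). Here, outlier spots were dropped (119 probes lost), signals were scaled to the 75th percentile of each array, log2 values of repeated spots and then of a gene's probes were averaged, and the 12 arrays were fitted with limma 3.58.1 (R 4.3.3), with Benjamini-Hochberg adjustment over 19505 genes. The fit was tested on simulated data. The members, lists and tests were chosen with earlier results of these data known. Values in full were given for *Hoxa2* and the other detected Hox genes. Members of lists that passed the test were named, though not all of them. Neighbors were named when next to an outer Hox gene or past the test. The p-values rest on 4 samples per turn, and the number of arrays limits the precision. Alternatives were other scalings, background corrections, filters, tests, a block for the sample number, and leaving out each array. *Sox10* was not analysed here, and some measured genes are not reported here.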

Additional observations from a re-analysis of the deposited data

Results flagged for a closer look

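Of the 42 sets of 4 arrays (14 detected Hox genes in 3 turns), 3 held an array far from the other 3, where chance puts about 1 in 20 sets. *Hoxa2* read 5.15 on middle array 3 and 7.55 to 8.10 on the other middle arrays, none of them well above background. This was not particular to *Hoxa2*. *Hoxa5*, which was not detected, read 5.24 on middle array 3 and 7.31 to 7.71 on the other middle arrays. The lowest signal well above background was 25.2 on middle array 3 and 34.3 to 35.8 on the others. *Hoxb2* read 29.3 on apical array 2 and 25.9 to 26.5 on the other apical arrays. Its detected probe did not stand apart there, at 116 on array 2 and 112 to 120 on the others. The *Hoxb2* probe that was not well above background read 7.40 on array 2 and 5.68 to 6.28 on the others. *Hoxb4* read 25.4 on apical array 2 and 17.9 to 18.4 on the other apical arrays. Its probe that was not well above background read 14.1 on array 2 and 5.41 to 5.68 on the others. The detected *Hoxb4* probe went the other way, at 45.5 on array 2 and 58.9 to 61.8 on the others.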

How the results depend on the processing

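The count of changed Hox genes between base and apex was 3 in place of 1 with spike-in scaling, and also 3 with the adjusted p of the contrast alone, each time with *Hoxa3* among them. Between base and middle turn it was 3 with the contrast alone, and 0 with normexp background correction, where *Hoxa2* fell under the 2-fold limit. The other alternatives gave the same counts, 1 between base and apex, 1 between base and middle turn and 0 between apex and middle turn. Leaving out 1 array at a time, the counts were 1 to 1, 1 to 1 and 0 to 0 in that order. As *Hoxa2* prompted the choice of the genes, nothing is read from its place in these counts. The count of detected Hox genes was 26 with the weaker flag, 16 when 3 of 4 arrays sufficed, 13 when at least 50% of a gene's probes were required, and 14 to 15 with each array left out. Over the alternatives the *Hoxa2* difference ran from 1.12 to 4.65 between base and apex and from 0.93 to 4.35 between base and middle turn. The other 13 detected genes gave 975 differences under the alternatives, of which 54 moved by more than the spread between arrays (range -0.99 to 0.64). Equal sample numbers deviated together only weakly (mean correlation 0.0949 over 12 pairs, lowest -0.0367, against -0.0313 for different numbers), so the numbers were not taken to pair the samples. With the sample number as a replicate block the counts were 1, 1 and 0 in the same order, and 854 genes in all were changed between base and apex in place of 856. Low signal limits these results, since 25 of 39 Hox genes did not reach the limit for detection in any turn. Of these, 10 had a probe well above background on at least 1 array.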

Other observations

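A total of 8 Hox probes were well above background on a single array of the 12, among them those of *Hoxb5* (46.2, basal array 4), *Hoxc11* (39.5, basal array 4), *Hoxc8* (36.8, basal array 2), *Hoxc4* (43.4, middle array 1), *Hoxc6* (72.8, middle array 2), *Hoxd12* (182, middle array 2) and *Hoxd1* (57.2, middle array 3). The share of Hox probes detected in some turn differed with the G and C content of the probe, 2 of 22 probes at 40% or less, 11 of 40 above 40% to 45%, 2 of 13 above 45% to 55% and 4 of 6 above 55%. Over all probes the shares were 72.1%, 75.4%, 83.4% and 89.1%.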
